A study of Mus musculus with 4 samples.

Results

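The genes described here were 7 chemokines with a known place in the intestinal epithelium (Ccl6, Ccl9, Ccl20, Ccl25, Ccl28, Cxcl16 and Cx3cl1) and the cytokine Il18, taken by symbol as 8 of the 27998 genes counted in each library. Each of the 8 symbols had 1 row in the count matrix of every library. The single-cell RNA-seq libraries were made with a 3′ kit (10x Genomics V2) from small-intestinal crypts of 8-week-old mice, sorted as live EpCAM+ CD45- cells, so that leukocytes were gated out. 2 libraries were labelled Slc7a5 fl/fl and 2 Slc7a5 IEC-KO. The fl/fl mice carried loxP sites around exon 1 of Slc7a5, an amino acid transporter gene, and no Cre, and were littermates of the knockouts. The IEC-KO mice carried the same floxed alleles with Cre under the villin promoter, which drives it in intestinal epithelium and not in the underlying tissue. The labels name 4 mice and do not say which mouse gave which library, so the p-values measure only the spread between these libraries, which may be technical.

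Chemokines are small secreted proteins that draw leukocytes carrying the matching receptor. In the small intestine Ccl25 attracts T cells and plasma cells with Ccr9, Ccl28 attracts plasma cells with Ccr10, and Ccl20 attracts Ccr6-positive dendritic cells and lymphocytes, most of all over lymphoid follicles. Ccl6 and Ccl9 are ligands of Ccr1, which myeloid cells carry. Cx3cl1 and Cxcl16 are made as membrane proteins and can be shed by the proteases Adam10 and Adam17, whereas Il18 is made as an inactive precursor that inflammasomes activate through caspase-1.

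The libraries held 3633 and 3217 cells (fl/fl) and 10004 and 9644 cells (IEC-KO), with 87922473 to 127094508 UMIs, the counted molecules, per library and medians of 22242, 32549, 6699.5 and 9717.5 UMIs per cell. At most 132 cell barcodes were shared by any pair of libraries. Slc7a5 itself was counted at 140 and 128 UMIs in the fl/fl libraries and 350 and 615 in those labelled IEC-KO. 3′ reads need not cover the deleted exon, so this count checks no label. Of 18 leukocyte markers measured, Gzmb and Cd8a had no UMI in any library, and no cluster of leukocytes or of M cells was found. Of a longer list of 24 immune cell markers measured, 21 had a UMI over all cells. The study's methods state that immune clusters were removed before its own comparison.

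Cell classes were set without the 8 genes. Paneth cells were those in which the 13 symbols starting with Defa, the alpha-defensins, took at least 30% of the UMIs (2020, 1950, 2019 and 2336 cells, in the order fl/fl library 1 and 2, IEC-KO library 1 and 2, which is kept throughout). Cells under 20% were clustered and named from markers, and the suffix "-like" marks these rebuilt names, which can differ from those of the study. Goblet-like cells (591, 451, 2566 and 2343) came mostly from cluster 6 in the fl/fl libraries and from clusters 0, 2 and 3 in the IEC-KO libraries. Cluster 0 had no fl/fl cell. Transit-amplifying (TA)-like cells numbered 523, 420, 1165 and 1078 and enterocyte-like cells 192, 152, 445 and 372. A Paneth-like class under 20% Defa held 57, 39, 1489 and 1208 cells. Most of its fl/fl cells lost that name at a clustering resolution of 2, as given below. A cluster led by Dmbt1 and Cps1, with 4 enterocyte markers, stayed unnamed. So did a cluster led by Plet1 and Tat, found almost wholly in IEC-KO (3, 1, 596 and 633 cells). The latter had 6 goblet markers but is not in the goblet-like class. Levels are given as CPM, the UMIs of a gene divided by all UMIs of the class in that library and scaled to the same total in every library. Changes are log2 fold changes, IEC-KO against fl/fl, of counts summed per class and library, scaled by the trimmed mean of M-values (TMM), which sets the typical gene to no change. They were tested with edgeR's quasi-likelihood test, with Benjamini-Hochberg adjusted p-values over all genes of the class. Without TMM the median gene of Paneth cells moved up by 0.62 and that of all cells by 0.83 on the log2 scale, and by at most 0.18 in size in the other classes tested, so the changes below are relative to the typical gene.

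**Figure D1:**
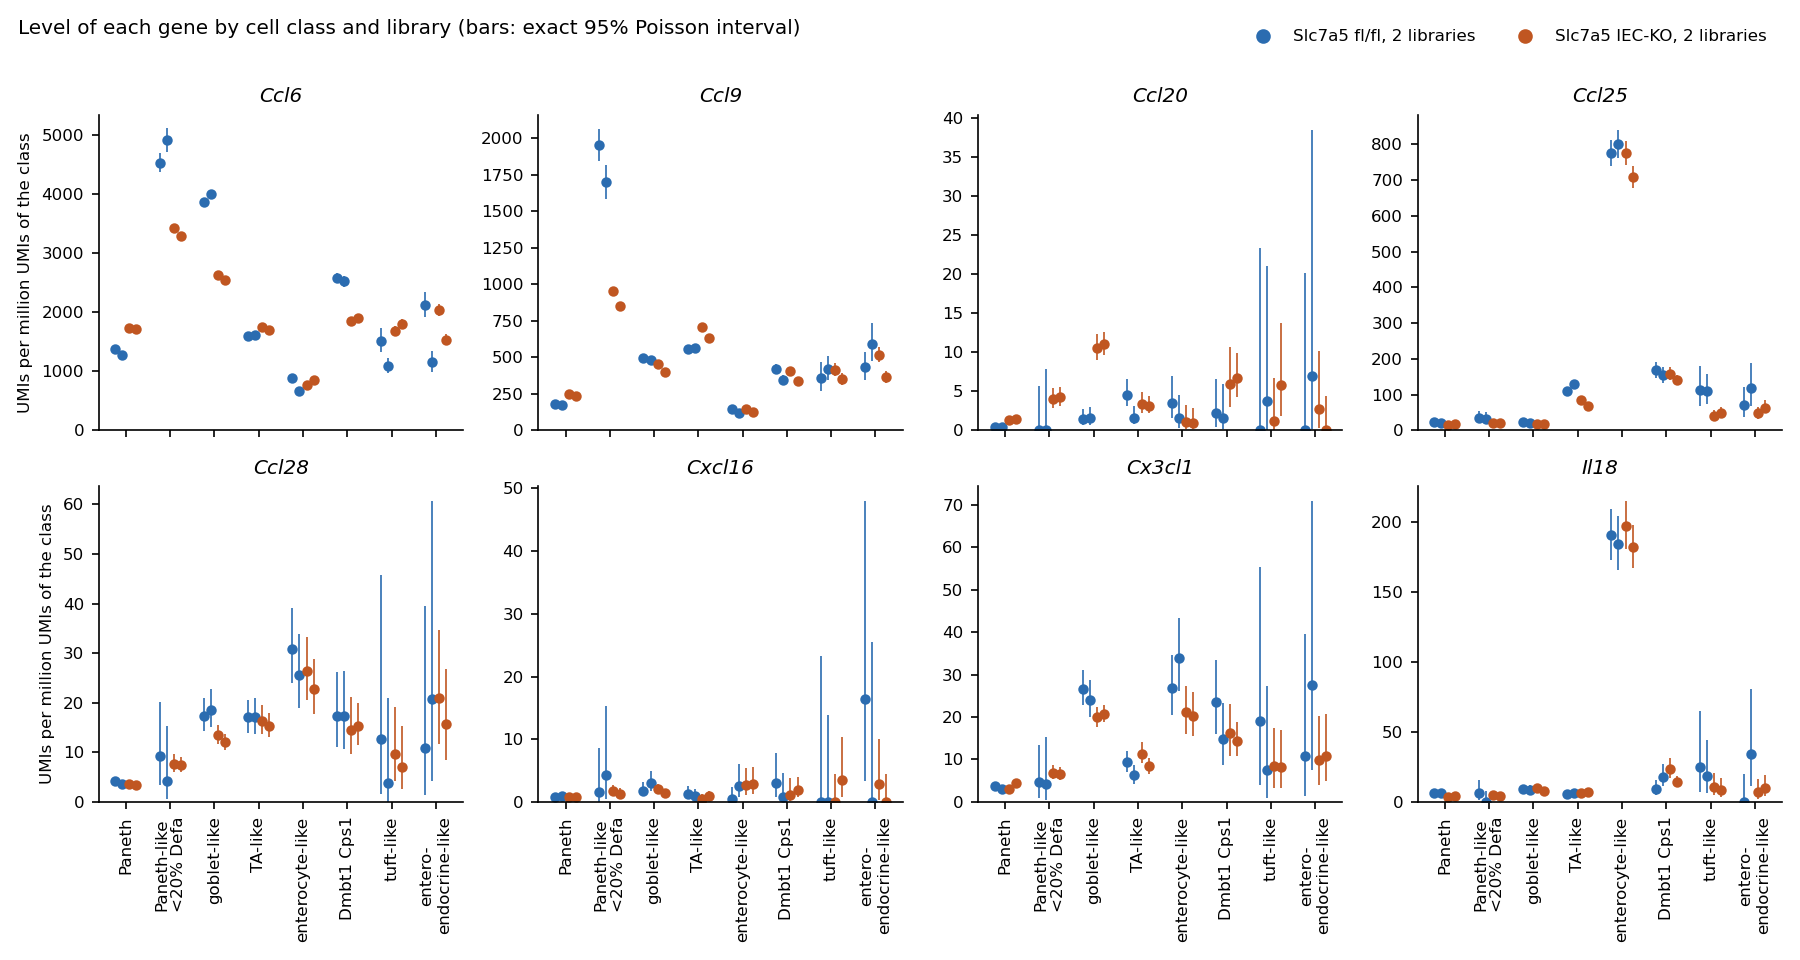
Level of each of the 8 genes (CPM) in 8 cell classes, 1 point per library, fl/fl in blue and IEC-KO in orange, with exact 95% Poisson intervals that cover counting error only. Ccl25 and Il18 stood far higher in enterocyte-like cells than elsewhere, Ccl6 and Ccl9 were highest in Paneth-like cells under 20% Defa, and Ccl20 rose in goblet-like cells of the IEC-KO libraries.

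Ccl6 was counted in 99.0% to 99.9% of all cells of a library. It was highest in Paneth-like cells under 20% Defa (4539, 4918, 3429 and 3287 CPM), next in goblet-like cells (3867, 3997, 2632 and 2548 CPM) and lowest in enterocyte-like cells (886, 662, 768 and 852 CPM). Both of these leading classes were lower in each IEC-KO library than in either fl/fl library, and within a genotype the order of the 2 classes held in every library. Between them and the enterocyte-like cells lay the Dmbt1 Cps1 cluster at 1854 to 2581 CPM, Paneth cells at 1281 to 1741 CPM, TA-like cells at 1606 to 1760 CPM, tuft-like cells at 1098 to 1802 CPM and enteroendocrine-like cells at 1161 to 2127 CPM, and the last 4 overlapped in their spread, as did the first and the last. Defa takes at least 30% of the UMIs of Paneth cells, which lowers their CPM of other genes. In CPM outside Defa their mean Ccl6 was 2532. The Dmbt1 Cps1 cluster then had 2374, enteroendocrine-like cells 1826, TA-like cells 1751 and tuft-like cells 1612. As every class held Ccl6, the enterocyte-like value was set against what the Defa UMIs there would carry at the Paneth ratio, and it was 4.66 to 6.03 times higher. Goblet-like cells stood 10.9 to 19.1 times above that ratio, so RNA carried from them would exceed it too. The ratio therefore cannot tell Ccl6 made by enterocyte-like cells from carried RNA.

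In goblet-like cells Ccl6 fell by 0.65 on the log2 scale (SE 0.0707, edgeR adjusted p = 2.18e-06), and it was 1 of 6 of the 8 genes past the threshold there, against 17.1% of all 10592 genes tested. The fall was also present within cluster 6, the cluster that held most fl/fl goblet-like cells, where the raw levels were 4039 and 4221 CPM in fl/fl and 3201 and 2656 CPM in IEC-KO (log2 fold change -0.65, SE 0.0812, edgeR adjusted p = 1.24e-08, where 2.13% of all genes passed). Cluster 2 gave -0.41 (edgeR adjusted p = 0.00774, against 1.26% of all genes). That call was lost under 4 of 10 alternatives, among them fl/fl library 1 left out (-0.36) and fl/fl library 2 left out (-0.45). In cluster 3 the raw levels were 3275 and 2876 CPM in fl/fl, from only 13 and 8 cells, and 2002 and 1959 CPM in IEC-KO, with no test. The goblet-like clusters with cells of all libraries were 2, 3 and 6, and in each both IEC-KO libraries were lower in raw CPM than both fl/fl libraries. In Paneth-like cells under 20% Defa Ccl6 was lower by 0.55 (SE 0.112, edgeR adjusted p = 5.84e-05), 1 of 3 of the 8 genes called where 5.15% of all genes were. In the Dmbt1 Cps1 cluster it was lower by 0.41 (SE 0.0960, edgeR adjusted p = 0.00892, against 3.34% of all genes). The former call was lost with thinned cells. Both edgeR calls were lost without fl/fl library 1 (adjusted p = 0.114 and 0.217) and without fl/fl library 2 (adjusted p = 0.232 and 0.154).

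In Paneth cells themselves the Ccl6 change lay close to the threshold. The TMM-scaled levels were 1663 and 1639 CPM in fl/fl and 1435 and 1356 CPM in IEC-KO, without overlap (log2 fold change -0.24, SE 0.0978, edgeR adjusted p = 0.0535). On raw CPM the order was turned, with 1387 and 1281 in fl/fl and 1741 and 1713 in IEC-KO, and scaling by library size alone gave 0.37 (edgeR adjusted p = 3.33e-04). Of the other alternatives 5 called Ccl6 lower, with values down to -0.30 at a Paneth limit of 40% Defa. Ccl6 is also among the genes that the study listed from a comparison of these Paneth cells, so that list is no independent evidence. In the IEC-KO libraries 228 and 250 Paneth cells had a trypsinogen UMI after thinning, and no fl/fl Paneth cell had one. Ccl6 stood at 1803 and 1740 CPM in those cells and at 1734 and 1710 CPM in the other IEC-KO Paneth cells. In TA-like cells the change was 0.17 (SE 0.0678, edgeR adjusted p = 0.149) and in enterocyte-like cells 0.07 (SE 0.0998, edgeR adjusted p = 0.839).

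Ccl9 lies next to Ccl6 on chromosome 11, on the same strand, with 9245 bases and no annotated gene between them (GRCm38, Ccl9 at 83572919-83578636 and Ccl6 at 83587882-83593087, both minus). Across the 34 sums of class and library with at least 10 cells the log2 levels of the pair had a Pearson r of 0.764, a description only, since the sums share libraries and total counts. The promoters are shown because the pair shares sequence there, in RefSeq on GRCm38.p6, from 250 bases before to 50 bases after the start. The Ccl6 window is chr11:83593038-83593337 and the Ccl9 window chr11:83578587-83578886, both on the minus strand and written 5′ to 3′. Capitals mark runs of at least 10 bases found in both windows.
Ccl6: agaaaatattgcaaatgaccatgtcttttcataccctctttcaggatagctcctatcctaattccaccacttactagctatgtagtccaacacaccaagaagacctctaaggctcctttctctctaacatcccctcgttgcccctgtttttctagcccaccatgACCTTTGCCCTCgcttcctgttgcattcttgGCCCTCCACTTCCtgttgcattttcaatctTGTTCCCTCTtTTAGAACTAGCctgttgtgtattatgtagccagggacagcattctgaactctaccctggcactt
Ccl9: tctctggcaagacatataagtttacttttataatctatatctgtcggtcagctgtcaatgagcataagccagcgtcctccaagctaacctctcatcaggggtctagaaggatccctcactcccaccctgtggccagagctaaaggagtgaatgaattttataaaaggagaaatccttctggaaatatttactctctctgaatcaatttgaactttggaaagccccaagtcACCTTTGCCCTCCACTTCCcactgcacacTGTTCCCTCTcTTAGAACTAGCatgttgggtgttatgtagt
The shared runs were of 12, 13, 10 and 11 bases, and they lay in the same order in both genes. Of 32851 promoters of this length 4, 6, 47 and 4 held them. The spacing differed, since the first run lay 86 bases before the start in Ccl6 and 20 bases before it in Ccl9. Of 6 motifs searched on both strands the Ccl6 window held none, whereas the Ccl9 window held TATAAA (13.6% of all promoters), TGANTCA, the AP-1 motif (7.81%), and an NF-kB motif (8.46%). A match of letters is not a bound site.

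Ccl9, like Ccl6, was highest in Paneth-like cells under 20% Defa. Paneth-like cells under 20% Defa held 1953 and 1699 CPM in fl/fl and 952 and 849 CPM in IEC-KO, TA-like cells 560, 567, 705 and 630 CPM, and goblet-like cells 496, 483, 452 and 400 CPM. Enteroendocrine-like cells at 365 to 594 CPM, tuft-like cells at 350 to 423 CPM and the Dmbt1 Cps1 cluster at 335 to 421 CPM overlapped with goblet-like cells. Paneth cells stood below these at 184, 173, 248 and 233 CPM of raw UMIs, and enterocyte-like cells held the least at 144, 122, 146 and 126 CPM. In CPM outside Defa the Paneth mean was 346, beside 402 in the Dmbt1 Cps1 cluster and 140 in enterocyte-like cells. Within the Paneth-like class the signal came from cluster 1, led by Rnase1 and Fam46c and with Ang, Wnt3 and Ephb3 among its top genes, at 1953, 1753, 1436 and 1241 CPM. Cluster 8, led by Pnliprp2 and with 1 fl/fl cell, held 256 and 244 CPM in IEC-KO. Within TA-like cells Ccl9 stood at 894 to 966 CPM in the S phase cluster 10, at 747 to 943 CPM in the G2 and M phase cluster 4, and at 138 to 161 CPM in cluster 7, which carried enterocyte and stem markers beside those of cycling cells.

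The largest fall of Ccl9 was in Paneth-like cells under 20% Defa, at -1.08 (SE 0.108, edgeR adjusted p = 1.12e-20). The class holds cluster 8 almost wholly from IEC-KO, and within cluster 1 alone the fall was 0.58 on the log2 scale (SE 0.111, edgeR adjusted p = 1.31e-04), beside a fall of 0.62 for Ccl6 (SE 0.112, edgeR adjusted p = 4.49e-05). 2.51% of all genes passed in cluster 1. At resolution 2 the cells of cluster 1 were split by genotype, since a cluster led by H2-Eb1 and Cd74 held 51 of 57 and 33 of 38 of its fl/fl cells but 127 of 906 and 166 of 742 of its IEC-KO cells. That finer cluster had 1 Paneth marker and stayed unnamed. Within it Ccl9 stood at 1844 and 1745 CPM in fl/fl and 1584 and 1259 CPM in IEC-KO. Ccl6 stood at 4652 and 5020 against 3013 and 3023 CPM, again without overlap and with no test. The finer cluster with most IEC-KO cells of cluster 1 (675 and 453) had 5 Paneth markers and kept the name, with 6 and 5 fl/fl cells. Ccl6 overlapped there (3426 and 4181 against 3458 and 3189 CPM) and Ccl9 did not (3025 and 1812 against 1455 and 1372 CPM). The Paneth-like name thus did not hold for most fl/fl cells of cluster 1 at this resolution, so the falls above do not compare like cells alone. Without fl/fl library 1 the Ccl9 call of cluster 1 was lost (-0.46), and without fl/fl library 2 that of Ccl6 (-0.54). In cells with 20% to 30% Defa, between the Paneth and the other classes (120, 89, 1305 and 1218 cells), Ccl9 fell by 0.70 (SE 0.109, edgeR adjusted p = 3.79e-07), 1 of 3 of the 8 genes called where 10.4% of all genes were. In Paneth cells Ccl9 went from 220 and 221 to 205 and 184 TMM-scaled CPM, without overlap, and did not pass (-0.18, SE 0.0766, edgeR adjusted p = 0.0615). 3 alternatives called it lower, and library size alone turned it to 0.43 (edgeR adjusted p = 8.07e-06). In goblet-like cells the fall was 0.25 (SE 0.0719, edgeR adjusted p = 0.0228), a call lost under 6 of 15 alternatives. They were each fl/fl library left out (adjusted p = 0.173 and 0.114), library size, DESeq2, a limit of 10% Defa, and resolution 2, which gave -0.079 (adjusted p = 0.540). Within goblet-like clusters 2 and 6 the Ccl9 changes of -0.27 and -0.23 did not pass (edgeR adjusted p = 0.235 and 0.172). Ccl9 rose in TA-like cells, by 0.30 (SE 0.0710, edgeR adjusted p = 0.00541), 1 of 2 of the 8 genes called where 8.03% of all genes were. That rise was not seen within the TA-like clusters, where the changes were -0.01, 0.03 and 0.05 in clusters 4, 7 and 10. None of the 8 genes passed edgeR or DESeq2 in these clusters, where edgeR called 3.26%, 2.21% and 2.39% of all genes, and an unadjusted p under 0.05 was reached by Ccl25 in cluster 7 and Ccl6 in cluster 10. Cluster 10 held 82, 62, 343 and 351 of the TA-like cells and cluster 7 216, 184, 379 and 324. With thinned cells the call of Ccl9 in TA-like cells was lost. Without fl/fl library 1 or 2 the TA-like rise did not pass edgeR's test (0.29 and 0.32, adjusted p = 0.251 and 0.186).

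Both Ccr1 ligands changed level along the range of the Defa share, and the genotypes crossed on it. In CPM of the UMIs outside Defa, Ccl6 at a Defa share of 15% to 20% stood at 5075 and 5929 in fl/fl (60 and 66 cells) and at 3857 and 3599 in IEC-KO (542 and 508 cells). At 40% to 45% it stood at 2352 and 2259 in fl/fl (1171 and 922 cells) and at 2581 and 2453 in IEC-KO (380 and 406 cells). The fl/fl libraries were thus the higher pair in the low band and the lower pair in the high band, without overlap in either. The Defa share itself differed by genotype, with medians of 36.9%, 40.5%, 6.42% and 8.80%, so a band need not hold like cells. Cluster 8, at a median share of 13.4%, had 0 and 1 cells in fl/fl and 583 and 466 in IEC-KO. Whether like cells differed within a band was not tested. Ccl9 showed the same order, at 989 and 1188 against 760 and 681 in the low band and at 296 and 309 against 370 and 363 in the high band. Fewer than 100 fl/fl cells per library lay in each band from 10% to 30%. The band from 45% to 60% held only 20 and 12 IEC-KO cells. Ccl6 there was close between genotypes, at 2355 and 2263 in fl/fl and 2368 and 2398 in IEC-KO.

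**Figure D2:**
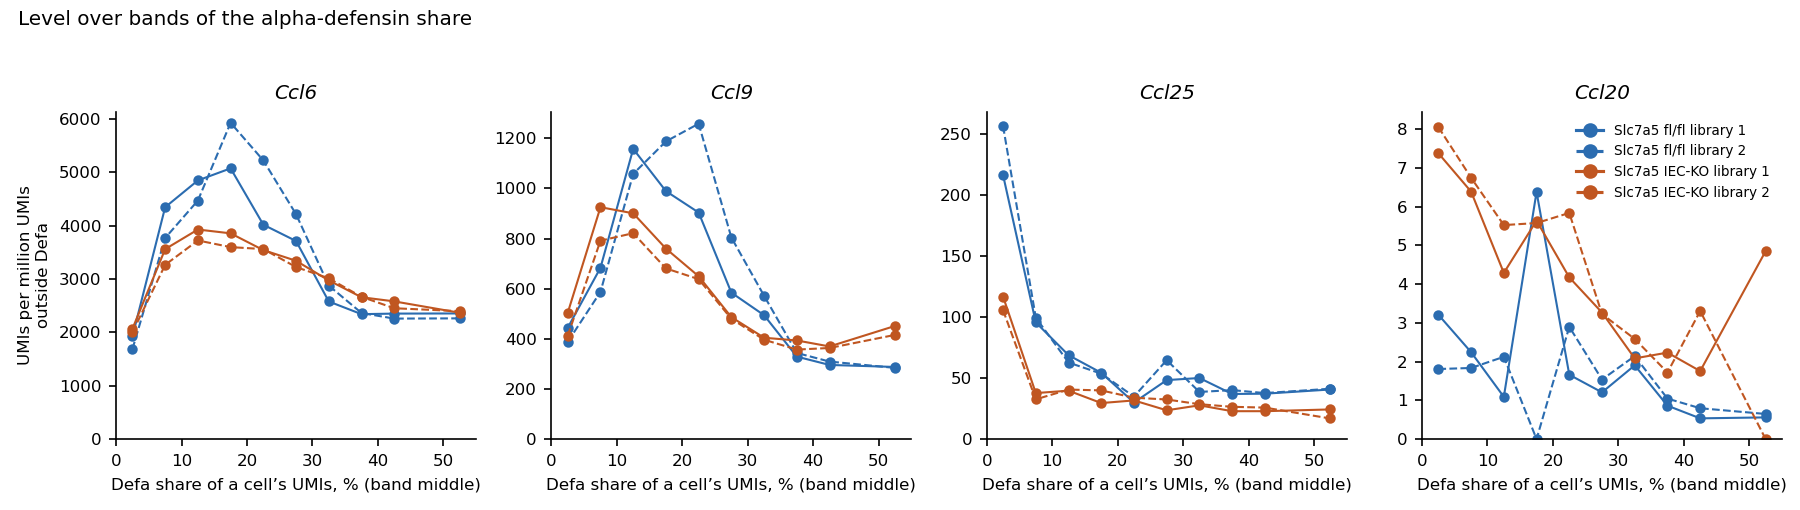
Level of Ccl6, Ccl9, Ccl25 and Ccl20 (CPM of the UMIs outside Defa) in cells grouped by the percent of their UMIs on Defa genes, 1 line per library, solid for library 1 and dashed for library 2, fl/fl in blue and IEC-KO in orange. Ccl6 and Ccl9 peaked between shares of 5% and 25%, both were higher in fl/fl from 10% to 30%, and at 40% and over both were lower in fl/fl. The last band held only 20 and 12 IEC-KO cells, and a band need not hold like cells in both genotypes.

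Ccl25, the Ccr9 ligand, was an enterocyte signal. Enterocyte-like cells held 776, 800, 777 and 709 CPM, the Dmbt1 Cps1 cluster 169, 154, 158 and 142 CPM, and TA-like cells 110, 130, 84.2 and 68.4 CPM. Goblet-like cells held only 23.8, 20.9, 17.7 and 17.9 CPM and Paneth cells 22.2, 22.0, 15.6 and 16.9 CPM. In CPM outside Defa the means of these classes were 21.3 and 32.2. With each cell thinned to 3500 UMIs, 87.4% to 89.1% of enterocyte-like cells had a Ccl25 UMI, against 5.20% to 7.74% of Paneth cells (59.2%, 65.2%, 20.7% and 29.1% unthinned, at median depths of 46965, 52851.5, 13782 and 20159 UMIs) and 5.54% to 8.97% of goblet-like cells (22.0%, 20.6%, 9.86% and 13.4% unthinned, at medians of 5355 to 10954). Enterocyte-like cells had medians of 5347 to 11512.5 UMIs. Within TA-like cells Ccl25 was concentrated in cluster 7, at 231, 252, 218 and 182 CPM, while clusters 4 and 10 held 21.9 to 29.2 CPM.

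Ccl25 did not change detectably in its source class. The TMM-scaled levels of enterocyte-like cells were 776 and 808 CPM in fl/fl and 778 and 718 CPM in IEC-KO, which overlap (log2 fold change -0.08, SE 0.0904, edgeR adjusted p = 0.784). None of the 6 genes tested there passed, where 2.38% of all genes did. 1 of the 6, Cx3cl1, had an unadjusted edgeR p under 0.05, and DESeq2 called none. In TA-like cells Ccl25 fell by 0.60 (SE 0.0904, edgeR adjusted p = 2.66e-05), from 108 and 128 to 85.4 and 70.5 TMM-scaled CPM. The changes within clusters 4, 7 and 10 were -0.21, -0.26 and -0.19 and did not pass (edgeR adjusted p = 0.623, 0.180 and 0.845), and cluster 7 held a smaller share of TA-like cells in both IEC-KO libraries than in either fl/fl library.

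In Paneth cells Ccl25 went from 26.6 and 28.2 TMM-scaled CPM in fl/fl to 12.8 and 13.4 in IEC-KO, a fall of 1.06 on the log2 scale or 2.09-fold (SE 0.0719, edgeR adjusted p = 1.16e-10). It was 1 of 6 of the 8 genes called in Paneth cells, where 39.9% of all 12492 genes were. The fall was the same in direction and passed under all 14 alternative settings, at -0.44 by library size alone. All 20 enterocyte markers had UMIs in Paneth cells. Their sum also fell, from 1471 and 1387 CPM of raw UMIs to 789 and 905 CPM. On that scale Ccl25 went from 22.2 and 22.0 to 15.6 and 16.9 CPM, a smaller relative fall. At the ratio of Ccl25 to these markers in the enterocyte-like cells of the same library, the marker UMIs in Paneth cells would carry 41.0, 35.3, 19.5 and 22.7 CPM of Ccl25, and the measured level was 0.54, 0.62, 0.80 and 0.74 of that. The Ccl25 level of Paneth cells was therefore below the carried level, which takes every marker UMI there as enterocyte RNA. That level is too high if Paneth cells make any of the markers. Expression of Ccl25 by Paneth cells was thus neither shown nor tested. At most 5 Paneth cells per library had over 1% of UMIs on enterocyte markers, and they held 23, 18, 0 and 2 of the 2098, 2277, 479 and 903 Ccl25 UMIs. In goblet-like cells Ccl25 fell by 0.38 (SE 0.110, edgeR adjusted p = 0.0224), a call lost with DESeq2 (adjusted p = 0.278), with thinned cells (adjusted p = 0.211) and without fl/fl library 1 (-0.29, adjusted p = 0.280). The enterocyte markers there went from 1802 and 1817 to 1300 and 1316 CPM, and Ccl25 stood at 0.47, 0.45, 0.55 and 0.54 of the carried level. Within goblet-like clusters 2 and 6 the Ccl25 changes were 0.09 and -0.68 and did not pass (edgeR adjusted p = 0.939 and 0.172). In Paneth-like cells under 20% Defa Ccl25 was lower by 0.85 (SE 0.272, edgeR adjusted p = 0.0383), a call lost under 9 of 12 alternatives. They were any 1 library left out (adjusted p = 0.0581 to 0.570), library size, DESeq2, no filter, a replicate block, and thinned cells, which gave -0.47 (adjusted p = 0.838). In cells with 20% to 30% Defa it fell by 0.73 (SE 0.170, edgeR adjusted p = 0.00104). That call was lost under 2 of 12 alternatives, among them fl/fl library 2 left out (-0.54). The part of enterocyte RNA in these falls was not tested.

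RefSeq gave Ccl25 a pair of starts, which 3′ reads cannot tell apart. The second start is shown because it has the core promoter motif that the first lacks. Its window is chr8:4349338-4349637, plus strand, GRCm38.p6. Capitals mark TATAAA (13.6% of all promoters) together with an overlapping match to TTTATNG on the minus strand, a motif of the intestinal CDX factors (10.9% of all promoters).
Ccl25: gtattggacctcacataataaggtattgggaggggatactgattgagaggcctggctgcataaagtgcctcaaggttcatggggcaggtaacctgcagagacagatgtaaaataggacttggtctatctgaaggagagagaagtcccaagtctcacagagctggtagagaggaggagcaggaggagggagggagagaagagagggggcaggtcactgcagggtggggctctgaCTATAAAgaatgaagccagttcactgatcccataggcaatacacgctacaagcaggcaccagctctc
The match to TATAAA began 16 bases before this start. The HNF4 motif CAAAGTCCA (0.475% of all promoters) was in neither Ccl25 window, nor was the motif of GATA factors (AGATAA, 11.2%).

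Il18 had the same source class. Enterocyte-like cells held 191, 184, 197 and 182 CPM, and the next classes were far lower, with the Dmbt1 Cps1 cluster at 9.08 to 23.2 CPM, tuft-like cells at 8.22 to 25.3 CPM, enteroendocrine-like cells at 0 to 34.6 CPM on at most 8 UMIs and goblet-like cells at 7.99 to 9.93 CPM. All 4 ranges overlapped, and TA-like cells (5.52 to 6.82 CPM) and Paneth cells (6.46, 6.09, 3.67 and 4.32 CPM) followed. After thinning, 38.8% to 43.0% of enterocyte-like cells had an Il18 UMI, and 1.20% to 2.62% of Paneth cells did (25.3%, 26.5%, 5.45% and 9.08% unthinned). In the enterocyte-like class the TMM-scaled levels of 190, 186, 198 and 184 CPM overlapped between genotypes, with a log2 fold change of 0.02 (SE 0.104, edgeR adjusted p = 0.967).

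In Paneth cells Il18 fell by 1.25 on the log2 scale, or 2.38-fold (610, 629, 113 and 231 UMIs; SE 0.0986, edgeR adjusted p = 1.35e-09), and passed under all 14 alternatives, at -0.63 by library size alone. Its level there was 0.64, 0.75, 0.74 and 0.74 of what the enterocyte-marker UMIs would carry. The same limit holds, and expression of Il18 by Paneth cells was neither shown nor tested. In goblet-like cells the TMM-scaled levels of 9.23 and 9.06 CPM in fl/fl and 9.78 and 7.88 CPM in IEC-KO overlapped (-0.07, SE 0.175, edgeR adjusted p = 0.850). Over the 34 sums the log2 levels of Il18 and Ccl25 had r = 0.771. The Il18 promoter is shown as that of the second enterocyte gene (chr9:50554450-50554749, plus strand, GRCm38.p6), with a match to TATAAA on the minus strand in capitals.
Il18: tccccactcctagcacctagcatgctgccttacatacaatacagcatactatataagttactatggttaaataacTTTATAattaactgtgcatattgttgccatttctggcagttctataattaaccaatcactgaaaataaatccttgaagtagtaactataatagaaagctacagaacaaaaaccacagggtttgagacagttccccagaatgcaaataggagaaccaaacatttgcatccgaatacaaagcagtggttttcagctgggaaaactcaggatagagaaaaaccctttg
This match began 175 bases before the start. No match to the CDX, HNF4, GATA, AP-1 or NF-kB motif was in the window.

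**Figure D3:**
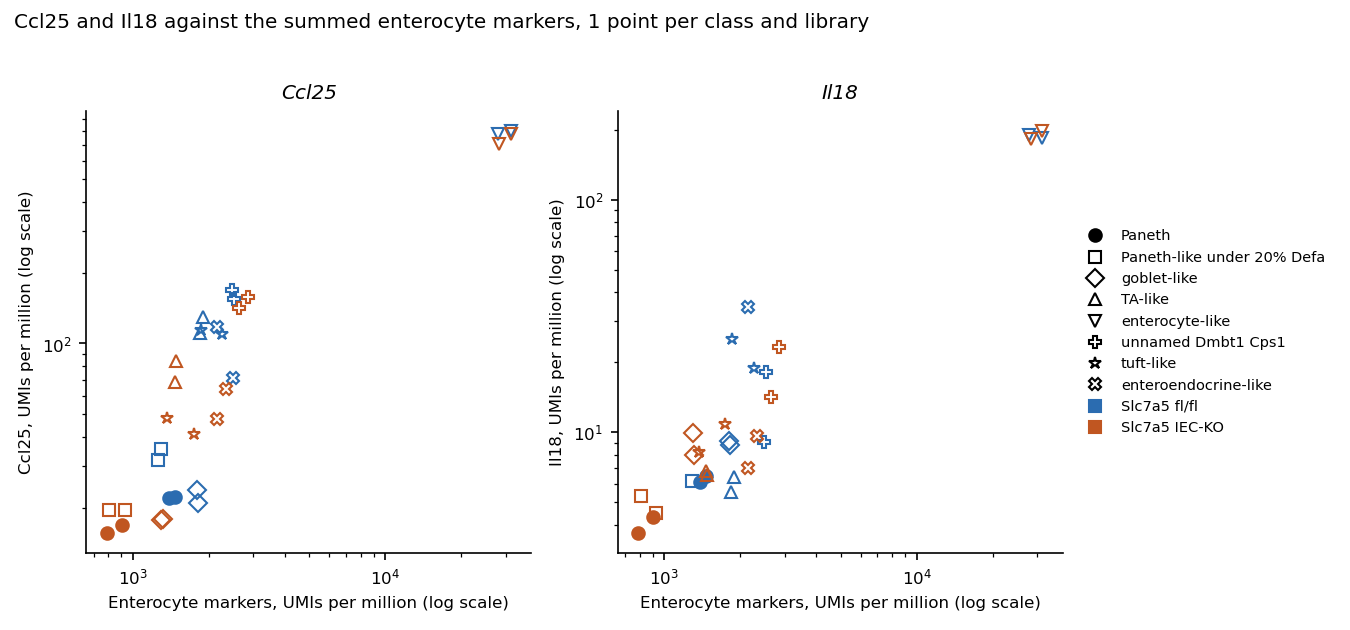
Level of Ccl25 and of Il18 (CPM) against the summed level of 20 enterocyte markers (CPM), both on log axes, 1 point per class and library, with shape for the class and color for the genotype. The enterocyte-like points stood apart at 27870 to 31477 CPM of markers, and Paneth points of IEC-KO lay below and to the left of those of fl/fl. Sums with no Il18 UMI are not drawn.

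Ccl28, the Ccr10 ligand, was low in every class and less restricted. Enterocyte-like cells held 30.9, 25.6, 26.3 and 22.8 CPM, goblet-like cells 17.4, 18.6, 13.6 and 12.01 CPM, TA-like cells 17.1, 17.1, 16.4 and 15.4 CPM, and Paneth cells 4.16, 3.69, 3.60 and 3.50 CPM. Goblet-like and TA-like cells overlapped, and Paneth cells were below both in every library. The highest cluster was the Fabp6 enterocyte cluster 12, at 50.4, 48.7, 45.1 and 37.5 CPM from 18 to 34 UMIs, and the Plet1 Tat cluster held 18.7 and 20.3 CPM in IEC-KO. In enterocyte-like cells Ccl28 did not pass (-0.21, SE 0.191, edgeR adjusted p = 0.723). Ccl28 fell in goblet-like cells by 0.54 (SE 0.129, edgeR adjusted p = 0.00602), from 17.5 and 19.1 to 13.4 and 11.8 TMM-scaled CPM. DESeq2 did not call it (adjusted p = 0.102), and within clusters 2 and 6 the changes of -0.49 and -0.18 did not pass. In Paneth cells it went from 4.99 and 4.72 to 2.97 and 2.77 TMM-scaled CPM (-0.77, SE 0.111, edgeR adjusted p = 9.27e-06), and by library size alone the change was -0.15 (adjusted p = 0.335).

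Ccl20, the Ccr6 ligand, was the only one of the 8 genes that rose in goblet-like cells, with TMM scaling and by library size alone. It was rare, with 89 and 72 UMIs in the fl/fl libraries and 354 and 517 in the IEC-KO libraries. Goblet-like cells gave 9 and 8 UMIs in fl/fl and 158 and 212 in IEC-KO, that is 1.45, 1.54, 10.6 and 11.1 CPM. The log2 fold change was 2.82, or 7.04-fold (SE 0.251, edgeR adjusted p = 1.20e-07), and it passed under all 14 alternatives that gave a value, between 2.67 and 3.66. After thinning, 0.338% and 0.222% of fl/fl goblet-like cells and 3.31% and 3.76% of IEC-KO goblet-like cells had a Ccl20 UMI (1.35%, 1.77%, 5.34% and 7.38% unthinned), beside 0.449% and 0.538% of enterocyte-like cells in IEC-KO. Goblet-like cells carried 10.1%, 11.1%, 44.6% and 41.0% of all Ccl20 UMIs of their library.

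The rise sat in clusters that the fl/fl libraries scarcely held. Cluster 3, led by Sprr2a3 and Hsd17b2, had 22.9 and 21.9 CPM of Ccl20 in IEC-KO (87 and 120 UMIs in 675 and 682 cells), and its 13 and 8 fl/fl cells gave 1 UMI each. Cluster 0, led by Serpina1b and Rgs2 and with the amino acid synthesis genes Phgdh, Psph and Psat1 among its top genes, had 9.88 and 9.85 CPM in IEC-KO and no fl/fl cell. In cluster 6 Ccl20 stood at 1.22 and 1.40 CPM in fl/fl (6 UMIs each) and 3.31 and 2.40 CPM in IEC-KO (3 UMIs each). In cluster 2 it stood at 1.72 and 1.20 CPM (2 and 1 UMIs) against 2.49 and 2.43 CPM (11 UMIs each). Both clusters were higher in both IEC-KO libraries, on too few UMIs for the test in either. A change of Ccl20 within 1 kind of goblet-like cell and a change in which goblet-like cells were present cannot be told apart here. The Plet1 Tat cluster, which IEC-KO alone held in number, had 7.83 and 9.10 CPM, and the Dmbt1 Cps1 cluster 2.27, 1.64, 5.94 and 6.66 CPM.

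In Paneth cells Ccl20 had 38, 46, 41 and 78 UMIs, or 0.483 and 0.570 TMM-scaled CPM in fl/fl and 1.10 and 1.15 in IEC-KO (log2 fold change 1.10, SE 0.226, edgeR adjusted p = 4.91e-04). It passed under all 14 alternatives, from 0.98 to 2.24. After thinning, 0.0495%, 0.103%, 0.545% and 0.642% of Paneth cells had a Ccl20 UMI (1.83%, 2.31%, 1.93% and 3.17% unthinned), beside 2.08%, 0%, 0.449% and 0.538% of enterocyte-like cells. At the ratio of Ccl20 to the 26 goblet markers in the goblet-like cells of the same library, the marker UMIs in Paneth cells would carry 0.196, 0.195, 1.63 and 2.03 CPM of Ccl20. The measured 0.402, 0.445, 1.33 and 1.46 CPM were 2.06, 2.28, 0.82 and 0.72 of that, and with the marker that gives the lowest carried level 2.89, 3.25, 1.25 and 1.07. The carried level takes every goblet-marker UMI in Paneth cells as RNA of goblet cells. The ratio therefore cannot tell carried RNA from Ccl20 made by Paneth cells. Whether expression by Paneth cells rose was not tested. In TA-like cells the levels of 4.47, 1.63, 3.43 and 3.27 TMM-scaled CPM overlapped (0.08, SE 0.342, edgeR adjusted p = 0.933). Paneth-like cells under 20% Defa had no Ccl20 UMI in fl/fl, which allows up to 4.62 and 6.35 CPM at a limit of 3 counts, and 4.06 and 4.22 CPM in IEC-KO (42 and 50 UMIs). Ccl20 entered the test there through the IEC-KO libraries alone. It had an unadjusted edgeR p of 0.00661 and did not pass adjustment (adjusted p = 0.0998). The Ccl20 promoter is shown because it holds an NF-kB motif, 80 bases before the start, in capitals (chr1:83116516-83116815, plus strand, RefSeq on GRCm38.p6).
Ccl20: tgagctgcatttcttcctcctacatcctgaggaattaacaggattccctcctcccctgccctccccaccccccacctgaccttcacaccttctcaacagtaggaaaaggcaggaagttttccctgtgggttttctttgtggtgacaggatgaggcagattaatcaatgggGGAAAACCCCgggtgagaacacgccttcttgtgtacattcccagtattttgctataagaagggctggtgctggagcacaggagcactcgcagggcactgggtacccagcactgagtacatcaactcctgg
8.46% of all promoters held such a match, among them that of Ccl9.

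Of the membrane-bound pair, Cx3cl1 was highest in enterocyte-like cells (26.9, 33.9, 21.1 and 20.2 CPM) and goblet-like cells (26.7, 24.0, 19.9 and 20.7 CPM), which overlapped. TA-like cells held 6.24 to 11.4 CPM and Paneth cells 3.05 to 4.38 CPM. In goblet-like cells Cx3cl1 fell by 0.36 (SE 0.104, edgeR adjusted p = 0.0204). That call was lost with DESeq2 (adjusted p = 0.264), with thinned cells (adjusted p = 0.125) and without fl/fl library 1 (-0.29, adjusted p = 0.234). Within goblet-like clusters 2 and 6 the changes of -0.43 and -0.28 did not pass (edgeR adjusted p = 0.501 and 0.671). In Paneth cells the levels of 4.51 and 4.01 TMM-scaled CPM in fl/fl and 2.52 and 3.46 in IEC-KO gave -0.46 (SE 0.130, edgeR adjusted p = 0.00660). Of 14 alternatives, library size alone turned the change to 0.15, and 3 others lost the call, among them IEC-KO library 1 left out (-0.29). In enterocyte-like cells the change was -0.54 (SE 0.197, edgeR adjusted p = 0.171), with both IEC-KO libraries lower than both fl/fl libraries.

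Cxcl16, the other membrane-bound chemokine, could not be placed. It had 103, 124, 99 and 133 UMIs in all cells of a library. Its highest mean, in enteroendocrine-like cells, rested on 3, 0, 2 and 0 UMIs, and goblet-like cells had 1.77, 3.07, 2.01 and 1.36 CPM beside 0.784, 0.891, 0.812 and 0.804 CPM in Paneth cells. The change in Paneth cells, from 74 and 92 to 25 and 43 UMIs, was -0.68 (SE 0.227, edgeR adjusted p = 0.0206). It was lost under 5 of 13 alternatives, among them library size (-0.05), DESeq2 (adjusted p = 0.162), fl/fl library 2 left out (-0.54) and IEC-KO library 2 left out (-0.63). In goblet-like cells the libraries overlapped (-0.56, SE 0.364, edgeR adjusted p = 0.333). Cxcl16 had no promoter entry among the 7 of 8 genes matched.

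**Figure D4:**
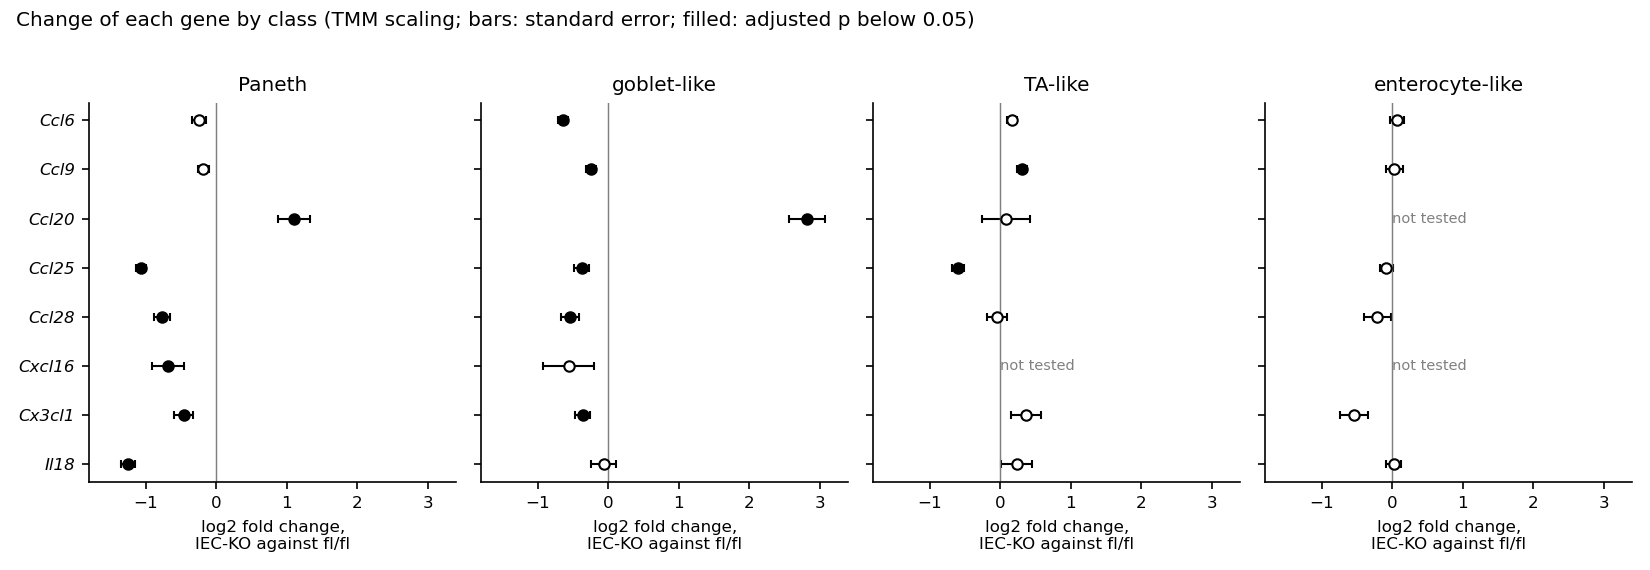
Log2 fold change of each gene, IEC-KO against fl/fl, in 4 cell classes (TMM scaling), with standard errors as bars and filled points where the edgeR adjusted p was below 0.05. Ccl20 lay to the right in Paneth and goblet-like cells, the filled points of Ccl25 lay to the left in 3 classes, and no point of enterocyte-like cells was filled.

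In tuft-like cells (13, 20, 119 and 89) none of the 4 genes tested passed edgeR, where 1.44% of all genes did, and in enteroendocrine-like cells (14, 10, 93 and 73) none of 3 passed, where 0.803% did. DESeq2 called none in either. An unadjusted p under 0.05 was reached in tuft-like cells by Ccl6 (0.60, edgeR adjusted p = 0.0796) and Ccl25 (-1.14, edgeR adjusted p = 0.0661) and in enteroendocrine-like cells by none.

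Whether a gene changed differently in goblet-like and Paneth cells was tested directly, with library as a block, and 4 of the 8 genes passed, against 15.2% of all 11910 genes. The change in goblet-like cells minus that in Paneth cells was 1.71 for Ccl20 (SE 0.392, edgeR adjusted p = 2.41e-04), 1.16 for Il18 (SE 0.183, edgeR adjusted p = 8.94e-09), 0.67 for Ccl25 (SE 0.119, edgeR adjusted p = 4.75e-07) and -0.41 for Ccl6 (SE 0.0748, edgeR adjusted p = 1.37e-06). Ccl20 thus rose more in goblet-like cells. The Ccl6 change was lower there than in Paneth cells, where it did not pass on its own. The Ccl20 difference did not pass edgeR's test with thinned cells (1.39, adjusted p = 0.674) nor the Ccl25 difference by library size (0.11, adjusted p = 0.512). The differences of Ccl9, Ccl28, Cxcl16 and Cx3cl1 were -0.07, 0.21, 0.07 and 0.10 and did not pass.

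Summed over all cells, as bulk RNA of a library would be, 6 of the 8 genes passed, where 42.1% of all 13574 genes did. In such sums fewer cells of a type and less RNA per cell cannot be told apart. Ccl20 rose by 1.71 on the log2 scale (SE 0.137, edgeR adjusted p = 1.44e-10). Ccl25, Il18 and Cxcl16 were lower (-0.71, -0.68 and -0.68, edgeR adjusted p = 1.04e-09, 9.54e-09 and 0.00223), as were Ccl6 and Ccl28 (-0.32 for each, edgeR adjusted p = 0.00276 and 7.79e-04), and by library size alone all 5 turned, to 0.12, 0.16, 0.15, 0.52 and 0.51. Without fl/fl library 2 the edgeR calls of Cxcl16 (-0.51, adjusted p = 0.0623) and Ccl6 (-0.31, adjusted p = 0.100) were lost, and that of Ccl6 also without fl/fl library 1 (-0.33, adjusted p = 0.0795). With each cell thinned to 3500 UMIs, 4 of the 8 genes passed over all cells, where 2912 of all genes did. The calls of Ccl6 and Cxcl16 were lost there. The class that held the UMIs shifted between the genotypes, for all genes together as for these. Of all UMIs of a library, Paneth cells held 94430487 of 113529509, 103305352 of 119339206, 30793974 of 87922473 and 53460665 of 127094508. The shift is therefore not read as particular to these genes. Paneth cells held 41.6% and 46.2% of the Ccl25 UMIs of the fl/fl libraries and 10.9% and 16.4% of those of IEC-KO. For Il18 they held 52.3% and 57.2% against 10.9% and 18.1%. Enterocyte-like cells carried 34.9%, 31.1%, 47.0% and 39.5% of the Ccl25 UMIs and 37.1%, 32.1%, 50.6% and 43.9% of the Il18 UMIs. For Ccl6 the Paneth share was 72.8%, 76.2%, 27.3% and 34.0%, and for Ccl9 63.5%, 68.4%, 19.7% and 25.9%.

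Among related genes, receptors of the 8 ligands were nearly absent from these sorted cells. 8 of 12 receptors had a UMI in Paneth cells, 2 could be tested, and Ackr4, a scavenging receptor that binds Ccl25, fell by 1.51 on 16, 19, 1 and 7 UMIs (edgeR adjusted p = 0.0260). Ackr4 met the filter on low counts only in fl/fl, so its direction was largely fixed in advance. Of the 19 genes of Il18 processing, its inhibition and chemokine shedding, 17 were tested in Paneth cells, 3 rose and 8 fell, beside 39.9% of all genes called there. The largest rises were those of Casp4, an inflammatory caspase (0.73, edgeR adjusted p = 3.14e-05), and Nlrc4, an inflammasome sensor (0.55, edgeR adjusted p = 2.79e-04). The largest falls were those of Naip1, a partner of Nlrc4 (-1.11, edgeR adjusted p = 4.07e-05), and Nlrp6, another sensor (-0.98, edgeR adjusted p = 3.23e-07). The median change of the list was -0.36, beside -0.00 for all genes. In goblet-like cells 1 of 17 rose, Casp4 (0.44, edgeR adjusted p = 0.0186), and 1 fell, the adaptor Pycard (-0.41, edgeR adjusted p = 2.92e-04), and the list's median was -0.18. TA-like cells had 1 rise, the pore-forming protein gene Gsdmd (0.47, edgeR adjusted p = 0.0281), and 2 falls, Nlrp6 (-0.40, edgeR adjusted p = 0.0297) and Casp1 (-0.31, edgeR adjusted p = 0.0387), and no gene of the list passed in enterocyte-like cells, where Il18 was made.

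Of 30 other chemokines 29 were measured and only 5 met the filter on low counts in Paneth cells. Of these 3 were called higher, beside 39.9% of all genes called. The filter can be met by the libraries of 1 genotype alone, and Cxcl1 and Ccl5 met it only in IEC-KO. Their rise was thus largely fixed in advance, and the count of 3 is not read as a result about the list. Cxcl1, a neutrophil attractant, had 0, 1, 7 and 10 UMIs there (4.33, edgeR adjusted p = 3.00e-04) and Ccl5, a T cell attractant, 6, 6, 18 and 8 UMIs (1.73, edgeR adjusted p = 0.0218). The third was Ccl27a, an epithelial chemokine (0.58, edgeR adjusted p = 2.06e-05). None of the 3 tested in goblet-like cells passed in edgeR. Among 18 other epithelial cytokines Gdf15, a stress-induced cytokine, rose in both classes, from 0.279 and 0.334 to 6.15 and 5.77 TMM-scaled CPM in Paneth cells (4.26, edgeR adjusted p = 9.14e-15) and from 0.486 and 0.591 to 16.9 and 18.3 in goblet-like cells (5.02, edgeR adjusted p = 1.51e-10). In goblet-like cells Gdf15 met the filter only in IEC-KO. Tgfb1 rose by 1.33 in Paneth cells and by 1.19 in goblet-like cells (edgeR adjusted p = 6.16e-08 and 0.00796). Il33, an alarmin, fell in Paneth cells on 20, 27, 2 and 4 UMIs (-2.33, edgeR adjusted p = 9.63e-04) and met the filter only in fl/fl. Immune cell markers summed to 40.4, 31.1, 18.2 and 14.9 CPM in Paneth cells, 4 of 8 tested fell and none rose, beside the 39.9% of all genes called. Lyz2 led them (-1.87, edgeR adjusted p = 2.03e-12), which shares sequence with the Paneth gene Lyz1, so its reads are uncertain. C1qb, a macrophage complement gene, followed at -1.25 (edgeR adjusted p = 0.00595). Of 10 stromal and endothelial markers 2 were tested in Paneth cells and Pecam1 was called higher on 5, 8, 9 and 17 UMIs (1.58, edgeR adjusted p = 0.00935). Pecam1 also met the filter only in IEC-KO. Of the 6 trypsinogens used for the split above, Try5 had 3, 2, 1792 and 2662 UMIs in Paneth cells. Of 15 genes induced by tissue dissociation 7 rose and 2 fell in Paneth cells, led by Atf3 (2.91, edgeR adjusted p = 5.78e-12) and Fosb (-0.80, edgeR adjusted p = 0.0179), and 2 rose in goblet-like cells, beside 39.9% and 17.1% of all genes called in these classes. Their part in the changes of the 8 genes was not tested.

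Genes whose level was most like each of the 8 over the 34 sums were drawn from 9624 genes, by Pearson r of log2(CPM + 1), a description in which the points share libraries and depth. For Ccl25 they included Prap1 and Slc39a5 (r = 0.983 and 0.974) and for Il18 Slc16a5, Gstm6 and Aldh1l1 (0.942, 0.911 and 0.904). For Ccl6 they were Spink4, Fkbp11 and Qsox1 (0.965, 0.935 and 0.931) and for Ccl9 Ang, Rnase4 and Mt3 (0.943, 0.917 and 0.901). Ccl28 was most like Cd2ap, Atp10b and Frk (0.913, 0.906 and 0.891) and Cx3cl1 most like Anxa2, Phgr1 and Prr13 (0.899, 0.881 and 0.875). For the sparse Ccl20 and Cxcl16 the nearest were Heg1 with Upk1b and Ghdc (0.788, 0.736 and 0.709) and Gm26935 with Tpcn2 and Gm5239 (0.830, 0.755 and 0.725), values that rest on few UMIs.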

How the data were processed

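The authors deposited 1 matrix of raw UMI counts per library. The submitters' processing notes name Cell Ranger 2.1.1 and mm10, and the study's methods name a later Cell Ranger version. Libraries were grouped by the genotype in their labels, and names such as "libraries labelled IEC-KO" rest on those labels alone. All deposited barcodes were used and no gene was removed before the sums.

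Cells under 20% Defa were clustered without the 8 genes (Python 3.11.15, scikit-learn 1.9.0, igraph 0.11.9, leidenalg 0.10.2) with 2000 variable genes, 30 components, 20 neighbours and Leiden resolution 1 (seed 0). A marker counted where it was in at least 25% of a cluster's cells and at least 1.5-fold higher than in the others (pseudocount 0.1). A cluster was named for a type with at least 3 counted markers. The type also needed a marker among the cluster's 10 leading genes, or at least 25% of its marker list counted. In the latter case no other type could lead it in those 10 genes. Doublets were kept; an alternative left out 1734 cells (6.54%), scored over 30 neighbours at a rate of 0.8% per 1000 cells. Counts of at least 10 cells were summed per class and library and tested in R 4.3.3 with edgeR 4.0.16 (filterByExpr, TMM, quasi-likelihood test, limma 3.58.1) at an adjusted p of 0.05, two-sided. Shares of cells were taken after thinning each cell to 3500 UMIs. No cell was shallower, as the lowest held 3843 UMIs. The alternatives were scaling by library size, TMM without granule and ribosomal genes, DESeq2 1.42.0, other filters on low counts, a replicate block, thinned cells, other Defa limits (40% and 10%), resolutions 0.5 and 2, doublets left out and each library left out. The test scripts were checked on simulated data.

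The 8 genes, the gene lists and the naming of clusters were chosen with earlier results of these data known. By a rule fixed in the design, all 8 genes are named in each class, the 2 largest rises and falls of a list among those called, and the 3 genes most alike, of which not every one is reported here. Class against class is a description with no test. Poisson intervals (95%) and limits of 3 counts cover counting error only. Gene positions are those of GRCm38 and promoters those of RefSeq on GRCm38.p6, where 7 of the 8 genes had an entry.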

Additional observations from a re-analysis of the deposited data

Results flagged for a closer look

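For 4 genes the change between genotypes differed between goblet-like and Paneth cells, by a test of the difference itself. In goblet-like cells the log2 change was higher than in Paneth cells by 1.71 for Ccl20, 1.16 for Il18 and 0.67 for Ccl25, and for Ccl6 the difference was -0.41. The goblet-like change of Ccl20 rests on clusters 0 and 3, of which cluster 0 had no fl/fl cell and cluster 3 had 13 and 8. In Paneth cells the summed enterocyte markers fell beside Ccl25 and Il18. The Ccl20 level of Paneth cells was 2.06 and 2.28 in fl/fl, and 0.82 and 0.72 in IEC-KO, of what goblet-marker UMIs there would carry. By the marker that gives the lowest carried level it was 2.89 and 3.25 in fl/fl and 1.25 and 1.07 in IEC-KO. The part of carried RNA in these differences was not tested.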

How the results depend on the processing

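Of 727 single values recomputed, 618 kept their direction and their side of the threshold, 60 lost a call, 13 gained one and 36 turned. By the mean of all libraries each of the 8 genes kept its leading class with thinned cells and in CPM outside Defa, the 2 settings run for levels. For Cxcl16 that class, enteroendocrine-like cells, rested on 3, 0, 2 and 0 UMIs. For Ccl20 it was goblet-like cells, which led through IEC-KO. In fl/fl they held 1.45 and 1.54 CPM, below TA-like cells at 4.58 and 1.65 CPM. In enterocyte-like cells 2 mean levels moved by more than 1 SD, Ccl25 to 822 CPM with thinned cells and Il18 to 196 CPM outside Defa. The cause of the changes below was not tested, except that fewer libraries, cells or UMIs enter some. Genes past the threshold numbered 4990 in Paneth, 1807 in goblet-like, 856 in TA-like and 200 in enterocyte-like cells, 5709 over all cells and 1809 for the difference of changes. DESeq2 called 3123, 815, 236 and 57 in the 4 classes and 559 for the difference, and 2 of the 8 genes in goblet-like cells against 6. It gave no adjusted p for 24 values. With thinned cells the counts were 1911, 959, 259, 79, 2912 and 601, and 1 of the 8 genes passed in TA-like cells and 1 in Paneth-like cells under 20% Defa. Il18 in goblet-like cells then stood at 0.093, Ccl6 and Ccl28 in enterocyte-like cells at -0.076 and 0.054, and the differences of Ccl9, Cxcl16 and Cx3cl1 at 0.0026, -0.73 and -0.21. Library size alone called 9249 genes in Paneth cells, 11455 over all cells and 6703 for the difference. It gave 0.37, 0.43 and 0.15 for Ccl6, Ccl9 and Cx3cl1 in Paneth cells, and over all cells 0.52, 0.12, 0.51, 0.15, 0.70 and 0.16 for Ccl6, Ccl25, Ccl28, Cxcl16, Cx3cl1 and Il18. The differences of Ccl28, Cxcl16 and Cx3cl1 became -0.35, -0.50 and -0.46, 1 gene passed in tuft-like cells and 0 in cluster 2. A Paneth limit of 40% called 2662 genes in Paneth cells, a minimum of 10 counts 2 of the 8 in tuft-like cells, and no filter 0 in cluster 2. Without doublets 531 genes passed in TA-like and 112 in enterocyte-like cells, where Ccl6 and Ccl9 stood at -0.22 and -0.19. Under 10% Defa Ccl6 in enterocyte-like cells stood at -0.029. At resolution 0.5 enterocyte-like cells had 307 genes past the threshold, 1 of the 8 among them (Cx3cl1), and Il18 at -0.18.

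Leaving out 1 library left 3 to 6 of the 8 genes in goblet-like cells (3 without fl/fl library 1), 1 to 3 in TA-like cells, 1 to 2 in Paneth-like cells under 20% Defa, 1 to 3 in cells of 20% to 30% Defa, 0 to 1 in enteroendocrine-like, tuft-like and Dmbt1 Cps1 cells, 1 to 2 in clusters 1 and 6, 0 to 2 in clusters 2 and 7 and 0 to 1 in cluster 10. Over all genes the counts ran from 1179 to 2122 in goblet-like, 270 to 1254 in TA-like and 78 to 138 in enterocyte-like cells, and from 1020 to 1548 for the difference. Counts over all genes under the alternatives were taken only for Paneth, goblet-like, TA-like and enterocyte-like cells, all cells and the difference. In the other classes and clusters the counts of the 8 are therefore not read as a result. With 1 library left out, uncalled values crossed 0, with Il18 in goblet-like cells from -0.21 to 0.10, Ccl20 in TA-like cells from -0.41 to 1.03, Ccl6, Ccl9 and Il18 in enterocyte-like cells from -0.12 to 0.29, -0.079 to 0.16 and -0.033 to 0.071, Ccl9 over all cells from -0.097 to 0.094, and the differences of Cxcl16 and Cx3cl1 from -0.17 to 0.37 and -0.036 to 0.37. The deviations of same-numbered libraries correlated between -0.0109 and 0.0476. With 2 libraries per genotype this cannot decide whether the numbers 1 and 2 of the labels pair the libraries. A replicate block called 5111 genes in Paneth, 1974 in goblet-like, 1140 in TA-like and 276 in enterocyte-like cells. Without it the counts were 4990, 1807, 856 and 200. With a replicate block 6, 6, 2, 0 and 6 of the 8 genes passed in Paneth, goblet-like, TA-like and enterocyte-like cells and over all cells, 2 in Paneth-like cells under 20% Defa and 2 in cells of 20% to 30% Defa, and Ccl9 over all cells stood at -0.0011. Counts were low for Cxcl16 (99 to 133 UMIs per library) and for Ccl20 in TA-like and enterocyte-like cells (3 to 33 UMIs per sum), and so were the numbers of tuft-like and enteroendocrine-like cells in fl/fl (10 to 20).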
